A study of Mus musculus with 16 samples.

Results

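Sinusoidal endothelial genes of the liver were followed through 10 genes chosen by symbol: Lyve1, Stab1, Stab2, Clec4g, Fcgr2b, Kdr, Pecam1, Cdh5, Rspo3 and Wnt2. All 10 have a row among the 41585 of the count table, and all 10 passed the filter on low counts that left 13470 genes for testing. Liver RNA came from C57BL/6 mice of 4 groups with 4 libraries each: hCYP2B6-Tg males, Cyp2b-null males, hCYP2B6-Tg females and Cyp2b-null females. The hCYP2B6-Tg mice carry human CYP2B6, a drug- and lipid-metabolising cytochrome P450 of hepatocytes, and the Cyp2b-null mice lack mouse Cyp2b genes. Mice of all 4 groups ate a diet with 60% fat for 16 weeks, so none of the comparisons shows what the diet did. The promoter of the transgene, whether the hCYP2B6-Tg mice also lack the mouse genes, the ages of the mice and whether each library is 1 animal are not stated in the labels, so p-values measure the spread between libraries, which may be partly technical. The series was made to learn how human CYP2B6 acts in diet-induced obesity, and the question here is whether the endothelial part of the liver transcriptome differed with genotype or sex.

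Liver sinusoidal endothelial cells line the capillaries between plates of hepatocytes. They are fenestrated, lie on little basement membrane, and clear waste macromolecules and immune complexes from portal blood with scavenger receptors, lectins and an Fc receptor. They depend on VEGF signalling for this specialised state, and those near the central vein release WNT ligands and an R-spondin that keep the pericentral programme of neighbouring hepatocytes active. In bulk liver RNA, fewer cells of a type and less RNA per cell cannot be told apart.

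The promoters of Stab1, Stab2, Clec4g and Fcgr2b are shown as those of the scavenger, lectin and Fc receptor genes of the set, and that of Wnt2 as its WNT ligand. Each run is the 250 bases before the start in the RefSeq promoter list, on the strand of the gene (GRCm38.p6, all 5 on the minus strand). That start can lie inside the gene span given below. The Stab1, Stab2 and Clec4g windows overlap the span, and the Wnt2 window lies within it. Capitals mark only AGGAAG or its reverse complement CTTCCT, letters that hold GGAA, the core bound by ETS factors. GGAA between other letters is not marked.
Stab1, chr14:31168642-31168891: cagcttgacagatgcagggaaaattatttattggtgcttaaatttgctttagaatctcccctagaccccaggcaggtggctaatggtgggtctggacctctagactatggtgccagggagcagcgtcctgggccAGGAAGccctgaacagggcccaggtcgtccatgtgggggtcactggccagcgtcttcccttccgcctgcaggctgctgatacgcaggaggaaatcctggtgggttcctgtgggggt
Stab2, chr10:87007943-87008192: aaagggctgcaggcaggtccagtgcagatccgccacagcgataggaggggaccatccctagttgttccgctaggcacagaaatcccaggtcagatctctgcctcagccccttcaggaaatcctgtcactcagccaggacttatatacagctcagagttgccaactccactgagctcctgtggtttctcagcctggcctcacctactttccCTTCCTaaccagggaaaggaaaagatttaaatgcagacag
Clec4g, chr8:3720652-3720901: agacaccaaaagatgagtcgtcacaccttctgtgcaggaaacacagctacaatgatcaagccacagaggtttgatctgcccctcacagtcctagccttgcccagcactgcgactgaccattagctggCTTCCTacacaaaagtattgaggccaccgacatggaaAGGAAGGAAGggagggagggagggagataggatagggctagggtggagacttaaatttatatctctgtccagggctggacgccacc
Fcgr2b, chr1:170976072-170976321: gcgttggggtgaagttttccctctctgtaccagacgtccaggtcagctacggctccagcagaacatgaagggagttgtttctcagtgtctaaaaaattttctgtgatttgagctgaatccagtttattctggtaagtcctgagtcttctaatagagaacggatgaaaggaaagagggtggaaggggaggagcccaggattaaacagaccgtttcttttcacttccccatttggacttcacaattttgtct
Wnt2, chr6:18030446-18030695: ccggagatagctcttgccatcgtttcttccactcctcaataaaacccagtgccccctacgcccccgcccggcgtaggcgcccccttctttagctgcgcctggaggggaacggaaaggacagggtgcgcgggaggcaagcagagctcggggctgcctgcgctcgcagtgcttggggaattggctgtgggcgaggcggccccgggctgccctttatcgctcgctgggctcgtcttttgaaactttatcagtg
The table of promoters listed 6 of the 10 genes, the sixth being Kdr. The ETS letters stood in 3 of these 6 (Stab1 with 1 match, Stab2 with 1, and Clec4g with 3, of which 2 overlap), against 29.5% of 32851 promoter windows of this length. The letters AGATAA, 1 of the strings recognised by GATA factors, on either strand stood in 0 of the 6 and in 9.99% of all windows. Other GATA strings were not counted. These counts describe letters and not binding.

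As a check of the labels, the 5 mouse Cyp2b rows of the table (Cyp2b9, Cyp2b10, Cyp2b13, Cyp2b19 and Cyp2b23) summed to 7 to 80 counts in hCYP2B6-Tg males, against 1 to 8 in Cyp2b-null males, and to 15 to 44 counts in hCYP2B6-Tg females, against 3 to 9 in Cyp2b-null females. Cyp2b10 had 1 to 15 counts in each hCYP2B6-Tg library and 0 or 1 in each Cyp2b-null library, and the human transgene has no value here, so it was not analysed. Endothelial RNA was present in every library. The members had 18 to 603 counts in a library, from library totals of 5584587 to 9672708 and 17748 to 19181 detected genes, and their summed level was 282 to 309 CPM in hCYP2B6-Tg males, 261 to 295 CPM in Cyp2b-null males, 259 to 349 CPM in hCYP2B6-Tg females and 223 to 357 CPM in Cyp2b-null females. CPM are counts scaled to the TMM-adjusted library total. Set per kilobase of exon over the 16 libraries, Clec4g was highest at 22.6 ± 2.37 CPM per kb. Cdh5 (7.25 ± 1.0), Fcgr2b (6.75 ± 1.14) and Stab2 (6.05 ± 0.776) followed, then Kdr (4.93 ± 0.940), Stab1 (3.61 ± 0.482), Lyve1 (3.09 ± 1.06), Pecam1 (2.92 ± 0.657), Wnt2 (1.90 ± 0.466) and Rspo3 (1.53 ± 0.306), all in CPM per kb as mean ± SD over 16 libraries. After Clec4g, the ranges of mean ± SD overlapped between each member and the next in this order. Hepatocyte RNA dominated the same libraries, with Alb (albumin) averaging 86637 ± 2379 CPM in hCYP2B6-Tg males, 80214 ± 2420 CPM in Cyp2b-null males, 93404 ± 9304 CPM in hCYP2B6-Tg females and 101843 ± 9582 CPM in Cyp2b-null females (SD, n = 4 each). Lymphatic endothelium, which also makes Lyve1, left 0 to 3 counts per library of its markers Pdpn and Ccl21a; the third marker listed, Prox1, had 466 to 1217 counts per library and is also made by hepatocytes.

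No member differed with genotype past the threshold. With edgeR's quasi-likelihood test and Benjamini-Hochberg adjustment over 13470 genes at 0.05, 0 of 10 members passed in males, where 0.111% of all genes did, and 0 of 10 in females, where 0% did; DESeq2 and limma voom also called 0 of 10 in each sex. At unadjusted p under 0.05 it was 1 of 10 in males (Lyve1) against 7.17% of all genes, and 1 of 10 in females (Wnt2) against 7.59%. Over the alternatives run this count stayed at 1 in males and was 0 to 2 in females, where Cdh5 joined Wnt2 without Cyp2b-null female 3 (against 1070 of all 13682 genes). In 0 of 10 members did the 4 hCYP2B6-Tg libraries lie wholly apart from the 4 Cyp2b-null libraries of the same sex, while 4.77% of all genes did so in males and 3.5% in females. Estimates were above 0 (higher in hCYP2B6-Tg) for 7 of 10 members in males and 49% of all genes, and for 5 of 10 in females and 50.4% of all genes. The median log2 fold change was 0.065 in males against -0.0043 over all genes, and 0.0077 in females against 0.0016. The 95% interval of the change lay within 1.5-fold either way for 7 of the 10 in males and 8 of the 10 in females.

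**Figure D1:**
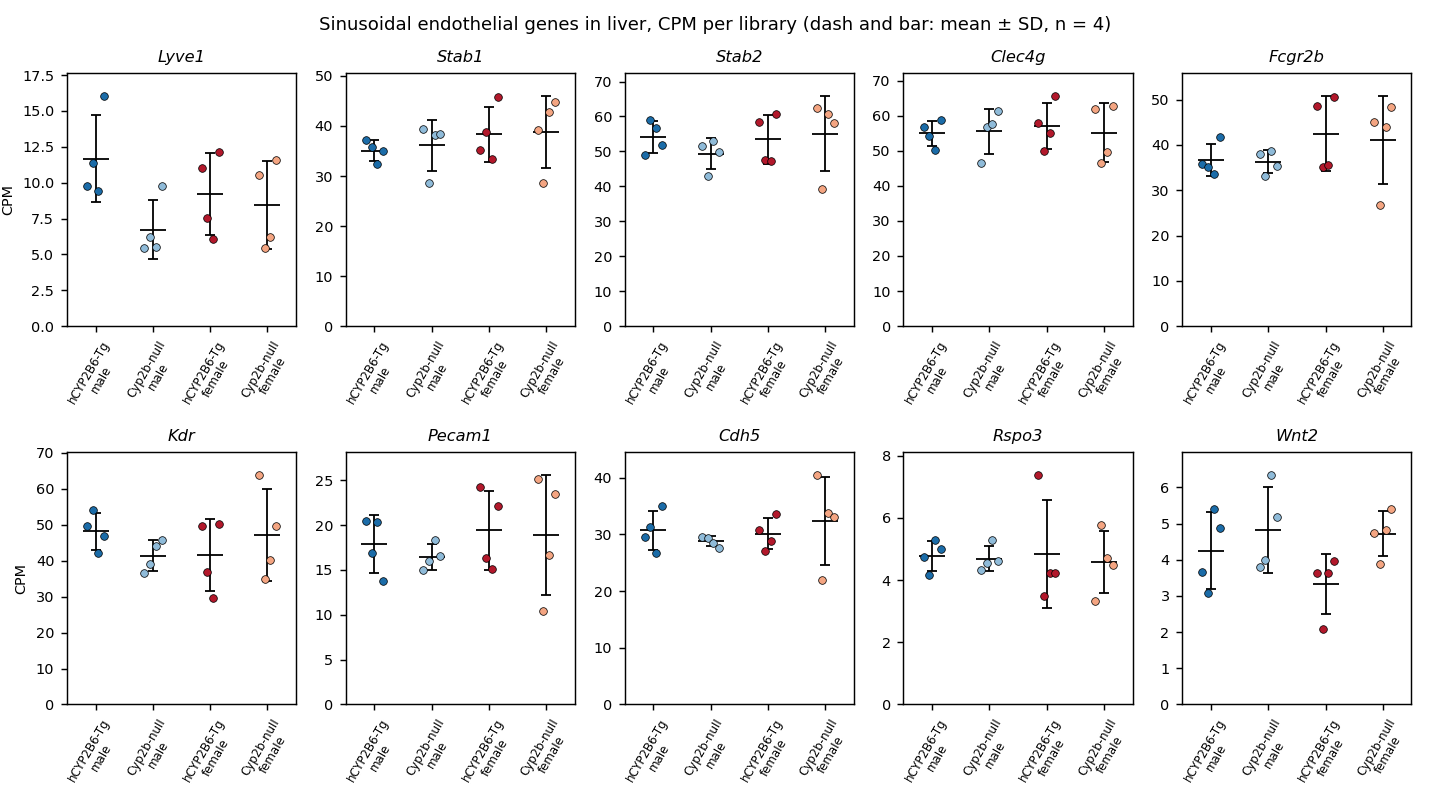
Level of each of the 10 genes in CPM (vertical axes, linear from 0) in the 16 libraries by group; points are libraries, the dash and bar are mean ± SD with n = 4. Lyve1 averages 11.7 CPM in hCYP2B6-Tg males and 6.73 CPM in Cyp2b-null males, Wnt2 averages 3.33 CPM in hCYP2B6-Tg females and 4.72 CPM in Cyp2b-null females, and the groups overlap in every panel.

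Lyve1 (chromosome 7:110850607-110862953, GRCm38.p6, minus strand) encodes the hyaluronan receptor LYVE1, which marks sinusoidal and lymphatic endothelium and some macrophages. It had 9.77, 11.4, 9.46 and 16.03 CPM in hCYP2B6-Tg males 2, 3, 4 and 5, against 5.42, 6.19, 5.55 and 9.78 CPM in Cyp2b-null males 1, 2, 3 and 4, the numbers being those in the library titles. All 4 hCYP2B6-Tg males lay above Cyp2b-null males 1, 2 and 3, and 2 of them lay just below Cyp2b-null male 4. The means were 11.7 ± 3.03 CPM in hCYP2B6-Tg males and 6.73 ± 2.06 CPM in Cyp2b-null males (SD, n = 4 each), a fold of 1.73 (95% interval 1.16 to 2.57) or 0.79 ± 0.27 (log2 ± SE). In edgeR the unadjusted p was 0.00926 and the adjusted p 0.483, so the difference did not pass, and leaving out 1 library at a time gave log2 values of 0.59 to 1.03. The cholangiocyte markers (Krt19, Krt7, Epcam and Sox9 summed) stood at 3.80 to 7.02 CPM in hCYP2B6-Tg males and at 5.28 to 8.53 CPM in Cyp2b-null males 1 to 3, but at 56.0 CPM in Cyp2b-null male 4, which also held 159 counts of the pancreatic gene Ctrb1 against at most 1 in any other library. Cfd, a secreted protease of fat cells, stood at 29.9 CPM in hCYP2B6-Tg male 4 and at 4.19 to 18.4 CPM in the other males of both genotypes. That library had no count of the other 4 fat cell markers listed, and Adipoq reached 7 counts in Cyp2b-null male 4, so hCYP2B6-Tg male 4 stands apart by Cfd alone. Without those 2 libraries and Cyp2b-null female 3, an omission chosen after seeing the data, the male Lyve1 difference was 1.13 on the log2 scale and still did not pass.

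In females, Lyve1 had 11.03, 7.57, 6.06 and 12.2 CPM in hCYP2B6-Tg livers 1, 2, 4 and 5, against 10.5, 5.46, 6.22 and 11.6 CPM in Cyp2b-null livers 1, 3, 4 and 5. Both groups held a high pair (1 and 5) and a low pair, and they overlapped throughout, with 0.12 ± 0.27 on the log2 scale (adjusted p = 0.951, edgeR). The female minus male genotype difference was -0.67 ± 0.38 (adjusted p = 0.716), so the sexes were not shown to differ. Averaged over both sexes, the Lyve1 difference was 0.46 ± 0.19 with an unadjusted p of 0.0278 and an adjusted p of 0.65 in edgeR, where 0 of 10 members passed against 0.0148% of all genes and 1 of 10 (Lyve1) had an unadjusted p under 0.05 against 6.94%. As a log2 level relative to the mean of the other 9 members, Lyve1 stood at -1.24, -0.98, -1.29 and -0.57 in hCYP2B6-Tg males, against -1.94, -1.72, -2.11 and -1.24 in Cyp2b-null males. On this scale hCYP2B6-Tg males 3 and 5 lay above every Cyp2b-null male, while hCYP2B6-Tg male 2 and Cyp2b-null male 4 were level.

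The scavenger receptors did not differ by genotype past the threshold. Stab1 and Stab2 encode the stabilins, large receptors that take up modified lipoproteins, hyaluronan and extracellular matrix fragments. Stab1 (chromosome 14:31139017-31168651, minus strand) had 37.3, 35.9, 32.3 and 34.9 CPM in hCYP2B6-Tg males, against 39.4, 28.6, 38.1 and 38.4 CPM in Cyp2b-null males. In females it had 35.2, 38.8, 33.5 and 45.8 CPM in hCYP2B6-Tg livers, against 39.2, 28.7, 42.7 and 44.7 CPM in Cyp2b-null livers. The groups overlapped in both sexes, Cyp2b-null male 2 and Cyp2b-null female 3 being low, with log2 differences of -0.043 ± 0.13 in males and -0.023 ± 0.13 in females. Stab2 (chromosome 10:86841194-87008038, minus strand) had 48.9, 58.9, 56.7 and 51.9 CPM in hCYP2B6-Tg males, against 51.5, 43.1, 53.03 and 49.9 CPM in Cyp2b-null males. It had 58.4, 47.5, 47.2 and 60.7 CPM in hCYP2B6-Tg females, against 62.3, 39.1, 60.7 and 58.03 CPM in Cyp2b-null females. Its log2 differences were 0.13 ± 0.12 in males (95% interval -0.12 to 0.39) and -0.044 ± 0.12 in females (95% interval -0.30 to 0.21), and its lowest library was again Cyp2b-null female 3.

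Clec4g and Fcgr2b encode a C-type lectin of sinusoidal endothelium and the inhibitory Fc receptor that clears small immune complexes. Clec4g (chromosome 8:3707066-3720695, minus strand) had 56.7, 54.3, 50.2 and 58.6 CPM in hCYP2B6-Tg males, against 46.4, 56.7, 57.5 and 61.4 CPM in Cyp2b-null males. In females it had 57.8, 49.96, 55.1 and 65.5 CPM in hCYP2B6-Tg livers, against 61.8, 46.5, 49.5 and 62.8 CPM in Cyp2b-null livers. It gave the narrowest intervals of the set, with -0.017 ± 0.11 in males (95% interval -0.25 to 0.21) and 0.049 ± 0.11 in females (95% interval -0.18 to 0.28), on the log2 scale. Fcgr2b (chromosome 1:170960558-170976071, minus strand) had 35.9, 35.2, 33.7 and 41.8 CPM in hCYP2B6-Tg males, against 38.1, 33.2, 38.6 and 35.4 CPM in Cyp2b-null males. It had 48.5, 35.1, 35.6 and 50.5 CPM in hCYP2B6-Tg females, against 45.1, 26.8, 43.98 and 48.3 CPM in Cyp2b-null females. The female libraries spread over a wider range than the male ones, and the log2 differences were 0.015 ± 0.15 in males and 0.042 ± 0.15 in females.

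The genes of the endothelial surface that sinusoidal cells share with other vessels also had no genotype difference past the threshold. Kdr encodes VEGF receptor 2, Pecam1 the junctional adhesion molecule CD31, and Cdh5 VE-cadherin. Kdr (chromosome 5:75932827-75979072, minus strand) had 49.6, 54.2, 41.98 and 46.9 CPM in hCYP2B6-Tg males, against 36.5, 39.1, 44.1 and 45.8 CPM in Cyp2b-null males. It had 49.5, 36.8, 29.7 and 50.3 CPM in hCYP2B6-Tg females, against 63.9, 34.8, 40.3 and 49.6 CPM in Cyp2b-null females. The estimate was above 0 in males (0.21 ± 0.18) and below 0 in females (-0.17 ± 0.18), and the difference between them was -0.39 ± 0.25 with an adjusted p of 0.757 in edgeR, so the sexes were not shown to differ. Pecam1 (chromosome 11:106654213-106715281, minus strand) had 20.5, 16.9, 20.4 and 13.8 CPM in hCYP2B6-Tg males, against 14.99, 15.96, 18.4 and 16.5 CPM in Cyp2b-null males. It had 24.2, 16.3, 15.1 and 22.1 CPM in hCYP2B6-Tg females, against 25.1, 10.4, 16.7 and 23.4 CPM in Cyp2b-null females. The lowest value of the 16 stood in Cyp2b-null female 3, and the log2 differences were 0.11 ± 0.22 in males and 0.038 ± 0.21 in females. Cdh5 (chromosome 8:104101613-104144504, plus strand) had 29.6, 31.4, 26.8 and 35.02 CPM in hCYP2B6-Tg males, against 29.6, 29.3, 28.5 and 27.6 CPM in Cyp2b-null males. It had 30.8, 27.1, 28.9 and 33.5 CPM in hCYP2B6-Tg females, against 40.6, 21.98, 33.8 and 33.1 CPM in Cyp2b-null females. The SD of Cdh5 was 0.885 CPM in Cyp2b-null males and 7.70 CPM in Cyp2b-null females, and the log2 differences were 0.094 ± 0.13 in males and -0.11 ± 0.13 in females.

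Wnt2 and Rspo3, the secreted WNT signals of central vein endothelium, were the least abundant members. Wnt2 (chromosome 6:17985474-18032772, minus strand) had 3.63, 2.10, 3.63 and 3.97 CPM in hCYP2B6-Tg females, against 4.74, 3.90, 4.84 and 5.42 CPM in Cyp2b-null females, from 100 counts in all and 146 counts in all. Of the hCYP2B6-Tg females 3 lay below every Cyp2b-null female, and the fourth, number 5, exceeded only the lowest of them. The log2 difference was -0.53 ± 0.25 (95% interval -1.05 to -0.016), with an unadjusted p of 0.044 and an adjusted p of 0.636 in edgeR, so it did not pass. In males Wnt2 had 3.67, 3.08, 5.40 and 4.87 CPM in hCYP2B6-Tg livers, against 3.79, 3.99, 6.36 and 5.18 CPM in Cyp2b-null livers, with a log2 difference of -0.17 ± 0.24. The female minus male difference was -0.36 ± 0.35 (adjusted p = 0.849, edgeR). Rspo3 (chromosome 10:29453106-29535867, minus strand) had 4.73, 4.15, 5.29 and 4.99 CPM in hCYP2B6-Tg males, against 4.33, 4.54, 5.28 and 4.60 CPM in Cyp2b-null males. It had 7.40, 3.49, 4.24 and 4.22 CPM in hCYP2B6-Tg females, against 3.34, 5.77, 4.72 and 4.48 CPM in Cyp2b-null females. The highest value was that of hCYP2B6-Tg female 1, and the log2 differences were 0.036 ± 0.23 in males (95% interval -0.45 to 0.52) and 0.064 ± 0.23 in females (95% interval -0.41 to 0.54). As folds these intervals reach from 0.733 to 1.43 in males and from 0.752 to 1.46 in females, at 19 to 55 counts per library.

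**Figure D2:**
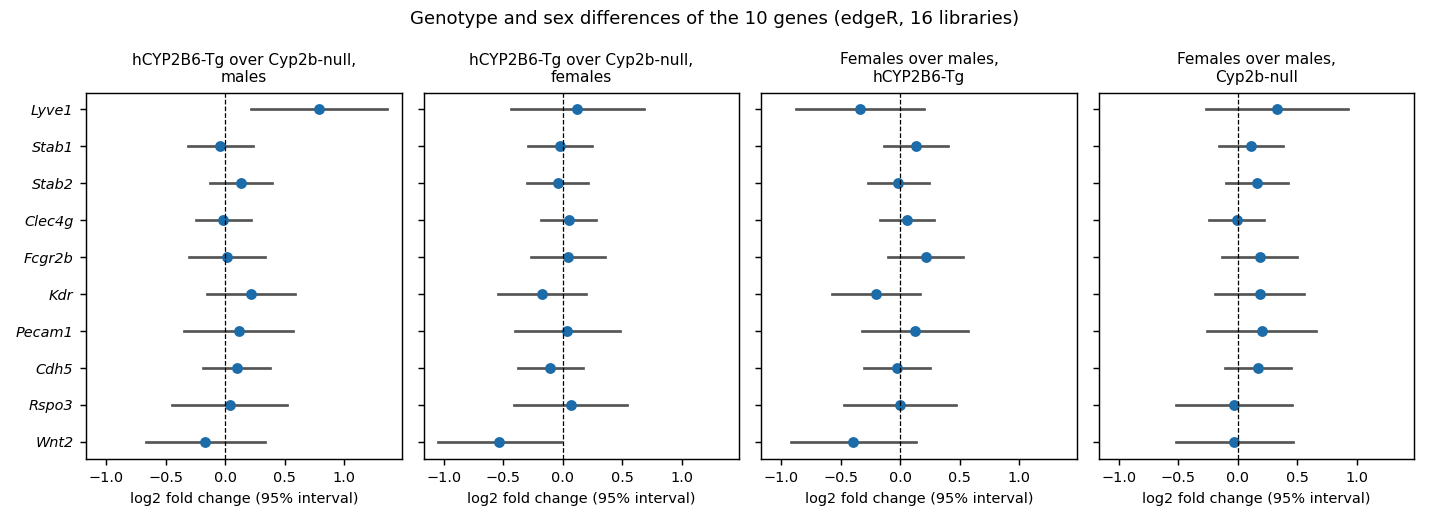
Log2 fold change (horizontal axis) of each of the 10 genes with its 95% interval, from 1 edgeR fit of 16 libraries; panels give hCYP2B6-Tg over Cyp2b-null in males and in females, and females over males in hCYP2B6-Tg and in Cyp2b-null livers. The interval leaves out 0 for Lyve1 in males (0.79) and, narrowly, for Wnt2 in females (-0.53), and neither passed after adjustment.

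Sex, by which many liver genes differed, gave no call among the members. In females against males, 0 of 10 members passed in hCYP2B6-Tg livers, where 10.3% of all genes did, and 0 of 10 in Cyp2b-null livers, where 7.52% did; at unadjusted p under 0.05 it was 0 of 10 in both, against 23.5% and 19.9% of all genes. Without Cyp2b-null female 3, 4 of 10 (Stab2, Fcgr2b, Pecam1 and Cdh5) had an unadjusted p under 0.05 in Cyp2b-null livers, against 2551 of all 13682 genes. Their log2 values were 0.29 to 0.39, all higher in females, with adjusted p from 0.111 to 0.23 in edgeR, so 1 library moves this count. In 0 of 10 members were the 4 female and the 4 male libraries of a genotype wholly apart, against 15.6% of all genes in hCYP2B6-Tg and 12.3% in Cyp2b-null livers. Median log2 differences were -0.011 in hCYP2B6-Tg livers (all genes 0.016) and 0.16 in Cyp2b-null livers (all genes 0.0046). The largest estimates were -0.40 ± 0.25 for Wnt2 in hCYP2B6-Tg livers (95% interval -0.92 to 0.13) and 0.33 ± 0.29 for Lyve1 in Cyp2b-null livers (95% interval -0.27 to 0.92). The genotype difference itself was not shown to differ by sex for any member (0 of 10 passed, against 0.0445% of all genes, and 0 of 10 had an unadjusted p under 0.05, against 7.7%). Without Cyp2b-null female 3, 4 of 10 (Lyve1, Stab2, Kdr and Cdh5) had an unadjusted p under 0.05 for this difference, against 1108 of all 13682 genes. Their values were all below 0 (log2 -0.81 to -0.31), with adjusted p of 0.581 to 0.604 in edgeR.

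The members deviated most from their group means in female libraries. As a mean log2 deviation over the 10 members from their group means, hCYP2B6-Tg females 1, 2, 4 and 5 stood at 0.20, -0.23, -0.20 and 0.22, and Cyp2b-null females 1, 3, 4 and 5 at 0.19, -0.38, -0.013 and 0.21. Cyp2b-null female 3 was lowest of its group in 9 of 10 members, Rspo3 being the exception, and hCYP2B6-Tg female 5 was highest in 8 of 10. In males the same mean ran from -0.035 to 0.079 in hCYP2B6-Tg and from -0.10 to 0.10 in Cyp2b-null livers. The residual SD of the mean was 0.26 in females and 0.088 in males (log2, 8 libraries each), and 9 of 10 members had the larger SD in females, as did 53.5% of all genes; Wnt2 was the exception. The wider female range was not particular to the members. Median deviations of 12 other sinusoidal genes ran from -0.36 to 0.21 in females and from -0.13 to 0.059 in males. Those of 21 genes of endothelium in general ran from -0.25 to 0.20 and from -0.060 to 0.12. This contrast of spread was seen in the data and carries no test.

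**Figure D3:**
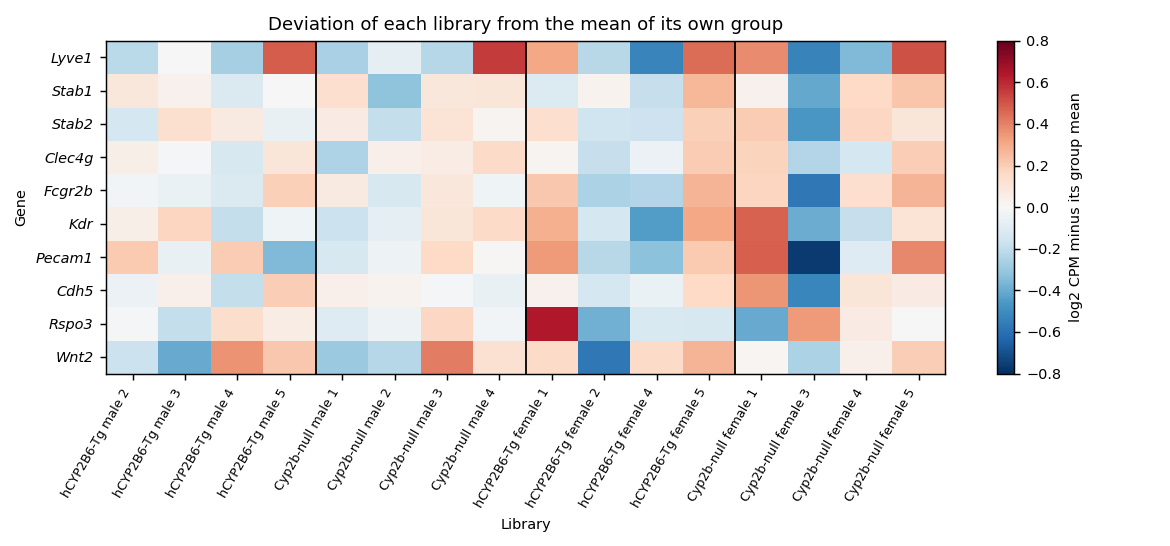
Log2 CPM of each gene (rows) in each library (columns, grouped by genotype and sex) minus the mean of its group; red is above and blue below the group mean. Cyp2b-null female 3 is blue in 9 of 10 rows, with a mean deviation of -0.38, and hCYP2B6-Tg female 5 is red in 9 of 10, with a mean of 0.22.

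Stab1, Stab2, Clec4g, Fcgr2b, Kdr, Pecam1, Cdh5 and Lyve1 varied together over the 16 libraries, more in females than in males. After group means were subtracted, all 28 pairs of these 8 had a positive Pearson r over the 16 libraries (0.40 to 0.85, median 0.68; Spearman's rho 0.33 to 0.82). The points share libraries, scaling and depth, so these values describe the libraries. The median was 0.53 without Cyp2b-null female 3, and it was 0.81 over the 8 females and 0.099 over the 8 males. In males the pairs ran from -0.87 (Pecam1 with Cdh5) to 0.71 (Fcgr2b with Cdh5). Wnt2 had an r of 0.21 to 0.51 with the 8, and Rspo3 one of -0.38 to -0.013. Without Cyp2b-null female 3 the values were 0.11 to 0.47 for Wnt2 and -0.19 to 0.33 for Rspo3, with 6 of its 8 above 0, so the all-negative range of Rspo3 rests on that library. Rspo3 and Wnt2 had an r of 0.38 with each other, 0.51 without Cyp2b-null female 3, 0.25 over the 8 females and 0.94 over the 8 males. Clec4g had a higher r with Wnt2 (0.51) than with Stab1 (0.40) or Stab2 (0.44). By a rule that ranked 11591 non-member genes by r with the mean of the standardised members, the most alike were Polr1e (r = 0.92), an RNA polymerase I subunit, Arhgap31 (0.91), Dnase1l3 (0.91), Slain2 (0.89), Itga9 (0.88) and Adam9 (0.88), where the 95th percentile of all genes was 0.57. Without the 2 libraries farthest from the median (Cyp2b-null female 3 and hCYP2B6-Tg female 5), r was 0.87 for Polr1e, 0.83 for Arhgap31 and 0.83 for Dnase1l3, a secreted DNase of sinusoidal endothelium. The summed haemoglobin and Alas2 level of red cell precursors was higher in females 1 and 5 of each genotype, where the members also lay above their group means, at 292, 165, 192 and 257 CPM in hCYP2B6-Tg females 1, 2, 4 and 5 and at 240, 204, 163 and 247 CPM in Cyp2b-null females 1, 3, 4 and 5, and its part in the endothelial pattern was not tested. The median r with the members was 0.61 over the 4 erythroid genes and 0.67 over 12 other sinusoidal genes, against 0.33 over 11 Kupffer cell genes and 0.011 over all genes. Without Cyp2b-null female 3 it was 0.78 over the erythroid genes, 0.56 over the other sinusoidal genes and 0.049 over the Kupffer cell genes, so that library sets the order of the first pair and most of the Kupffer value.

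Other genes of sinusoidal endothelium had no genotype difference past the threshold either. Of 12 listed (Gpr182, Oit3, Dnase1l3, Mrc1, Flt4, Ehd3, Gata4, Maf, F8, Bmp2, Bmp6 and Adam23), 0 passed in males (1 at unadjusted p under 0.05, 10 estimates above 0, median log2 0.18) and 0 in females (1 at unadjusted p under 0.05, 0 estimates above 0, median -0.19). Over all genes 49% of estimates lay above 0 in males and 50.4% in females, and 7.17% and 7.59% had an unadjusted p under 0.05. The female minus male genotype difference was above 0 for 0 of 12 (median log2 -0.35), against 51.4% of all genes. For it 0 passed and 3 had an unadjusted p under 0.05 in edgeR, against 7.7% of all genes. In Cyp2b-null livers 11 of 12 estimates were higher in females than in males, against 50.7% of all genes. These estimates come from the same libraries and are not independent of each other. Gata4, the transcription factor that specifies sinusoidal endothelium, had 14.97 ± 3.16 CPM in hCYP2B6-Tg females and 20.2 ± 3.38 CPM in Cyp2b-null females (SD, n = 4 each), a log2 difference of -0.42 ± 0.17 with an adjusted p of 0.584. Mrc1, the mannose receptor, had 50.3 to 69.7 CPM and 56.1 to 97.99 CPM in the same groups, and Oit3 had 24.7 to 40.1 CPM in hCYP2B6-Tg males and 23.8 to 30.6 CPM in Cyp2b-null males. Maf, a transcription factor of sinusoidal endothelium and macrophages, had 36.2, 30.3, 46.8 and 30.3 CPM in hCYP2B6-Tg males, against 29.97, 25.7, 29.5 and 30.1 CPM in Cyp2b-null males, which did not overlap, with 0.32 ± 0.12 (adjusted p = 0.536). It passed by sex in Cyp2b-null livers, at 38.7 ± 3.01 CPM in females and 28.8 ± 2.08 CPM in males (0.43 ± 0.12, adjusted p = 0.0278, edgeR), and lost that call without any 1 of Cyp2b-null males 2 or 3 or Cyp2b-null females 1 or 5 (log2 0.38 to 0.44).

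Among 21 tested genes of endothelium in general, 0 passed by genotype in either sex in edgeR, with 4 at unadjusted p under 0.05 in males (7.17% of all genes) and 2 in females (7.59% of all genes); DESeq2 called 1, Nrp1, in males. Nrp1, the co-receptor of VEGF and semaphorins, came nearest, with 93.2, 83.1, 92.4 and 84.2 CPM in hCYP2B6-Tg males, against 102, 124, 129 and 125 CPM in Cyp2b-null males, and the groups did not overlap. The log2 difference was -0.44 ± 0.095, with an unadjusted p of 0.000105 and an adjusted p of 0.0707 in edgeR, and it passed without Cyp2b-null male 1 (-0.51, adjusted p = 0.0466). In females Nrp1 averaged 104 ± 12.3 CPM in hCYP2B6-Tg livers and 90.3 ± 7.02 CPM in Cyp2b-null livers (0.21 ± 0.095), and the female minus male difference was 0.65 ± 0.13 (adjusted p = 0.1, edgeR). That difference passed with DESeq2 (adjusted p = 0.0151) and, in edgeR, without Cyp2b-null male 1 (0.72, adjusted p = 0.0424). By sex, Nrp1 was lower in females of the Cyp2b-null genotype (-0.41 ± 0.095, adjusted p = 0.00671). S1pr1, the receptor for sphingosine 1-phosphate, was higher in hCYP2B6-Tg females, at 63.4 ± 17.6 CPM, than in hCYP2B6-Tg males, at 42.4 ± 6.38 CPM (0.58 ± 0.17, adjusted p = 0.037), a call lost under 9 of 25 alternatives. Robo4, a guidance receptor of vessels, had 8.61 ± 1.44 CPM in hCYP2B6-Tg females and 11.2 ± 2.83 CPM in Cyp2b-null females (adjusted p = 0.636). Nrp1 and S1pr1 are also made by other liver cells.

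Genes that mark the loss of fenestration, known as capillarization, or that build basement membrane did not pass by genotype either (0 of 8 in each sex). At unadjusted p under 0.05 it was 2 in males (7.17% of all genes) and 0 in females (7.59% of all genes). Vwf, the clotting factor carrier of larger vessels, had 2.90, 1.69, 2.59 and 1.90 CPM in hCYP2B6-Tg males, against 0.722, 2.06, 0.676 and 1.30 CPM in Cyp2b-null males (0.90 ± 0.40, adjusted p = 0.657, edgeR). Lamb1, a laminin chain, averaged 7.18 ± 0.835 CPM in hCYP2B6-Tg males and 12.6 ± 8.78 CPM in Cyp2b-null males, where number 4 alone reached 25.3 CPM. Without that library its log2 difference moved to -0.19. Plvap, the diaphragm protein of fenestrated vessels, had 52.04, 49.03, 52.8 and 41.97 CPM in hCYP2B6-Tg females, against 47.2, 31.7, 47.2 and 46.99 CPM in Cyp2b-null females, overlapping. By sex, 0 of 8 passed in edgeR in either genotype. At unadjusted p under 0.05 it was 2 in hCYP2B6-Tg livers (23.5% of all genes) and 3 in Cyp2b-null livers (19.9%). DESeq2 called Plvap in hCYP2B6-Tg and Ly6a and Nid1 in Cyp2b-null livers, where limma voom called 0. Plvap was higher in every hCYP2B6-Tg female than in any hCYP2B6-Tg male (0.48 ± 0.16, adjusted p = 0.0576, edgeR), and 15.6% of all genes were likewise apart.

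Of 7 tested ligands for endothelial receptors, 1 passed by sex in each genotype, against 10.3% of all genes in hCYP2B6-Tg and 7.52% in Cyp2b-null livers. In either genotype contrast 0 of 7 passed. At unadjusted p under 0.05 it was 0 in males (7.17% of all genes) and 1 in females (7.59% of all genes). Angpt1, the agonist of the endothelial receptor TIE2, was higher in females than in males in both genotypes, at 3.19 ± 1.09 CPM against 1.44 ± 0.402 CPM in hCYP2B6-Tg livers (1.15 ± 0.36, adjusted p = 0.0452) and at 2.85 ± 1.03 CPM against 1.04 ± 0.669 CPM in Cyp2b-null livers (1.52 ± 0.41, adjusted p = 0.0215). At 4 to 38 counts per library these calls were not firm, and they were lost under 12 of 25 alternatives in hCYP2B6-Tg livers and 6 of 25 in Cyp2b-null livers, with log2 values of 1.01 to 1.38 and 1.29 to 2.08 when 1 library was left out. Angpt2, the context-dependent antagonist, Vegfc and Bmp10 stood below 5 CPM in every library. Vegfc averaged 2.24 ± 0.758 CPM in hCYP2B6-Tg females and 3.46 ± 0.720 CPM in Cyp2b-null females (adjusted p = 0.633), and Bmp10 averaged 1.06 ± 0.433 CPM and 1.69 ± 0.215 CPM in the same groups (adjusted p = 0.711).

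The WNT axis that Wnt2 and Rspo3 feed was followed in 17 tested receptors and other ligands and in 14 hepatocyte genes that WNT signalling sustains near the central vein. Of the 17, 0 passed by genotype, with 4 at unadjusted p under 0.05 in males (7.17% of all genes) and 3 in females (7.59% of all genes). By sex in hCYP2B6-Tg livers, 4 of 17 were higher in females (Lgr5, Fzd8, Fzd5 and Lrp5), against 4.69% of all genes, and 1 was lower (Fzd4), against 5.56%. In Cyp2b-null livers 0 of 17 passed by sex, against 7.52% of all genes. The log2 values there were 0.42 for Lgr5, 0.37 for Fzd8 and -0.086 for Fzd5. The genotype difference was not shown to differ by sex for any of the 17 (0 passed, and 5 had an unadjusted p under 0.05 in edgeR, against 7.7% of all genes). Lrp5 and Fzd4 are named after their values were seen, and the Lrp5 call was lost under 19 of 25 alternatives. Lgr5, the R-spondin receptor, had 19.1, 11.4, 17.1 and 18.6 CPM in hCYP2B6-Tg females, against 9.32, 6.46, 3.71 and 7.84 CPM in hCYP2B6-Tg males (1.29 ± 0.21, adjusted p = 0.000212, edgeR). The WNT receptor gene Fzd8 averaged 44.2 ± 6.36 CPM in those females and 20.2 ± 1.46 CPM in those males (1.13 ± 0.18, adjusted p = 0.000174). Fzd5 averaged 11.7 ± 2.20 CPM and 6.91 ± 2.40 CPM in the same groups (0.77 ± 0.19, adjusted p = 0.0102), a call lost without hCYP2B6-Tg female 5 (0.64, adjusted p = 0.0574). By genotype, Fzd1 had 9.38 to 14.9 CPM in hCYP2B6-Tg males and 6.47 to 10.7 CPM in Cyp2b-null males (adjusted p = 0.366).

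Of the 14 hepatocyte WNT targets, 0 passed by genotype in either sex in edgeR (4 at unadjusted p under 0.05 in males, against 7.17% of all genes, and 2 in females, against 7.59%) and DESeq2 called 1, Tbx3, in males. Estimates were above 0 for 2 of 14 in males (median log2 -0.13), against 49% of all genes, and for 9 of 14 in females (median 0.11), against 50.4%. Tbx3, a transcription factor of pericentral hepatocytes, had 18.2, 15.8, 32.5 and 11.99 CPM in hCYP2B6-Tg males, against 52.7, 34.9, 42.6 and 36.1 CPM in Cyp2b-null males. Every hCYP2B6-Tg male lay below every Cyp2b-null male, with -1.06 ± 0.29 on the log2 scale, an unadjusted p of 0.00245 and an adjusted p of 0.307 in edgeR; without hCYP2B6-Tg male 4, Cyp2b-null male 4 and Cyp2b-null female 3 the value was -1.51 and passed (adjusted p = 0.00129). Axin2, a feedback inhibitor and direct readout of WNT signalling, had 9.01, 7.45, 8.18 and 6.53 CPM in hCYP2B6-Tg females, against 10.7, 12.6, 9.44 and 10.7 CPM in Cyp2b-null females, where the groups did not overlap (-0.48 ± 0.20, adjusted p = 0.604). In males it had 5.19, 4.77, 7.88 and 3.56 CPM in hCYP2B6-Tg livers, against 9.75, 7.70, 5.55 and 9.50 CPM in Cyp2b-null livers, which overlapped (-0.57 ± 0.22, adjusted p = 0.555). Averaged over both sexes, Axin2 stood at -0.52 ± 0.15 with an adjusted p of 0.406 in edgeR, and Wnt2 at -0.35 ± 0.17 with an adjusted p of 0.724, neither past the threshold. By sex, 2 of 14 passed in hCYP2B6-Tg livers, both higher in females (Notum and Nkd1), against 4.69% of all genes. In Cyp2b-null livers 3 of 14 passed, against 7.52% in either direction: Notum and Lect2 higher in females and Cyp2e1 lower. The log2 values were 0.74 for Nkd1 (adjusted p = 0.0282), 0.45 for Lect2 (0.00489) and -0.30 for Cyp2e1 (0.0478), in edgeR, and these 3 genes are named after their values were seen. Notum, a secreted WNT inhibitor, was higher in females than in males in both genotypes, at 52.7 ± 6.56 CPM against 25.1 ± 1.99 CPM in hCYP2B6-Tg livers (1.07 ± 0.13, adjusted p = 5.10e-06) and at 43.5 ± 2.35 CPM against 28.98 ± 6.96 CPM in Cyp2b-null livers (0.58 ± 0.13, adjusted p = 0.00645). The Cyp2b-null call was lost without hCYP2B6-Tg male 4, Cyp2b-null male 4 and Cyp2b-null female 3 together (0.42, adjusted p = 0.0576).

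**Figure D4:**
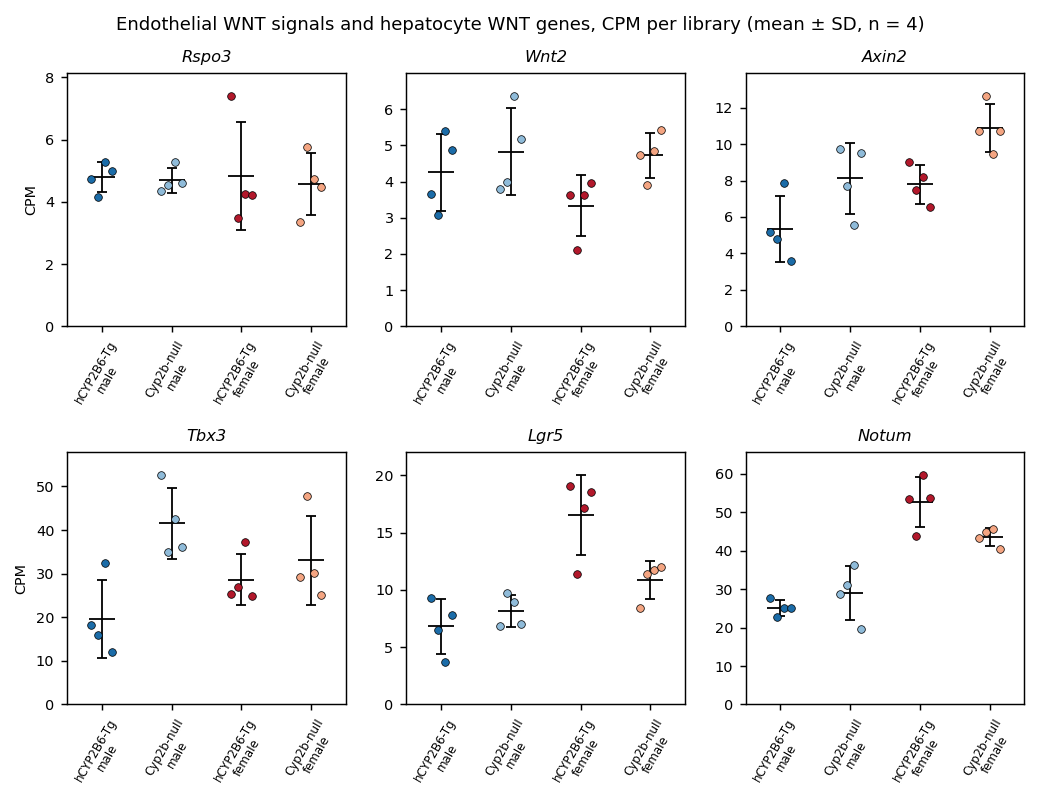
Level in CPM (vertical axes, linear from 0) of the endothelial WNT signals Rspo3 and Wnt2 and of 4 WNT target or receptor genes in the 16 libraries by group; points are libraries, the dash and bar are mean ± SD with n = 4. Axin2 averages 7.79 CPM in hCYP2B6-Tg females and 10.9 CPM in Cyp2b-null females without overlap, while Rspo3 averages 4.84 CPM and 4.58 CPM in the same groups.

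Kupffer cells are the macrophages of the same sinusoids. Of 11 tested markers, 0 passed by genotype (0 at unadjusted p under 0.05 in either sex, against 7.17% of all genes in males and 7.59% in females). By sex, 2 of 11 (Vsig4 and C1qb) were higher in hCYP2B6-Tg females in edgeR, against 4.69% of all genes, where DESeq2 and limma voom called Vsig4 but not C1qb. In Cyp2b-null females 6 of 11 were higher, against 3.57%, with each of the 3 tools. Their summed level was 573 to 756 CPM in hCYP2B6-Tg females and 454 to 541 CPM in hCYP2B6-Tg males, and 539 to 893 CPM in Cyp2b-null females and 391 to 581 CPM in Cyp2b-null males. The B cell list, whose cells also make Fcgr2b, summed to 1.38 to 5.09 CPM in any library. How much of the Fcgr2b RNA came from Kupffer cells or other cells was not measured.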

How the data were processed

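Liver RNA of 16 libraries was measured. The authors deposited whole-number read counts per gene symbol. Tools named in the submitters' processing notes are GSNAP, Subread, Trimmomatic, FastQC and edgeR, in no given order, with GRCm38.p6 as the build. RNA was extracted with Trizol and libraries made with the NEB Next Ultra kit, per the labels. No label states the strand setting, so overlapping genes on opposite strands cannot be told apart. Of the rows, 16032 had no count, 27 bore symbols turned into dates, and 3 empty columns were left out.

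Group and number come from each title. Genes were filtered with filterByExpr (13470 left) and scaled by TMM, and 1 fit of 4 groups was tested two-sided with edgeR 4.0.16 (glmQLFit, robust) in R 4.3.3, adjusted by Benjamini-Hochberg at 0.05; standard errors were derived from F. Log2 CPM used a prior count of 2. The script was tested on simulated data. Library totals of 5584587 to 9672708 counts mean that 0 counts allow up to 0.313 to 0.542 CPM (3 counts, counting error only). Alternatives were other scalings and filters, DESeq2 1.42.0, limma 3.58.1 (voom), a replicate block, only the groups compared, and single libraries left out. No 2 libraries of a group looked like copies (chi-square per degree of freedom 6.53 to 19.7 in 24 pairs).

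The members and lists were chosen with earlier results of these data known. All members are named; from each list, the 2 tested genes with the smallest p in the male and the 2 in the female genotype contrast are named, and the 6 genes most like the members. Gene positions and promoters come from RefSeq, exon lengths and strands from GENCODE M21.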

Additional observations from a re-analysis of the deposited data

Results flagged for a closer look

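In groups of 4 libraries, 1 value far from the other 3 was looked for in 124 groups of 31 genes by Dixon's criterion, which chance meets in about 1 in 20 groups, and 7 were found. Stab1 in Cyp2b-null male 2 had 28.6 CPM against 38.1 to 39.4 CPM in the others of its group. The same library had the low value of Maf, 25.7 CPM against 29.5 to 30.1 CPM. Gata4 had 19.7 CPM in hCYP2B6-Tg female 5 against 13.3 to 13.4 CPM. Plvap had 31.7 CPM in Cyp2b-null female 3, the library that was lowest of its group in 9 of 10 members, against 47.0 to 47.2 CPM. Among WNT genes, Fzd1 had 13.0 CPM in hCYP2B6-Tg female 1 against 8.85 to 9.47 CPM, Lgr5 had 8.43 CPM in Cyp2b-null female 1 against 11.4 to 11.98 CPM, and Tbx3 had 37.2 CPM in hCYP2B6-Tg female 4 against 24.95 to 26.9 CPM.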

How the results depend on the processing

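The count of members past the threshold was 0 in each of the 6 contrasts under each of the alternatives run (25 in 4 contrasts, 24 in the difference between sexes and the mean of both sexes, which have no fit of the groups compared alone). For the mean of both sexes, DESeq2 gave Lyve1 no adjusted p (unadjusted p = 0.0203), so Lyve1 could not pass in that fit. The male Lyve1 difference stayed above 0 throughout, with adjusted p from 0.204 to 0.733, and the female Wnt2 difference below 0, with adjusted p from 0.581 to 0.879. Small differences changed sign. Leaving out 1 library at a time, log2 values ran in males from -0.14 to 0.0042 for Stab1, -0.086 to 0.037 for Clec4g, -0.056 to 0.060 for Fcgr2b, -0.015 to 0.10 for Rspo3 and -0.31 to 0.0028 for Wnt2. In females they ran from -0.042 to 0.35 for Lyve1, -0.14 to 0.054 for Stab1, -0.18 to 0.010 for Stab2, -0.025 to 0.12 for Clec4g, -0.11 to 0.13 for Fcgr2b, -0.15 to 0.17 for Pecam1, -0.25 to 0.0030 for Cdh5 and -0.21 to 0.20 for Rspo3. Without Cyp2b-null female 3, Cyp2b-null male 4 and hCYP2B6-Tg male 4 together (chosen after seeing the data), values were 0.028 for Stab1, 0.076 for Clec4g and -0.029 for Rspo3 in males, and -0.024 for Lyve1, -0.022 for Clec4g, -0.11 for Fcgr2b and -0.15 for Pecam1 in females. Clec4g in males was 0.0045 with no filter, and Fcgr2b in males was -0.013 with library totals only and -0.022 with the replicate block. The cause of these changes was not tested.

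The count of all genes past the threshold moved more. In males it was 15, against 5 with the replicate block, 47 with DESeq2, 26 with only the groups compared, 6 without the 3 libraries, and 2 to 24 leaving out 1. In females it was 0, against 2 with no filter, 2 with the replicate block, 12 with DESeq2, and 0 to 1 leaving out 1. Averaged over both sexes it was 2, against 6 with no filter, 0 with the replicate block, 31 with DESeq2, and 0 to 4 leaving out 1. For the difference between sexes it was 6, against 0 with library totals only, 16 with DESeq2, 2 without the 3 libraries, and 0 to 12 leaving out 1. Over all genes tested, deviations from group means gave an r of -0.062 to 0.075 in 6 same-sex pairs of libraries with the same number. In all 18 same-numbered pairs r was -0.11 to 0.19, with 2 over 0.1. Pairs with unlike numbers were not compared, so shared handling by number was not tested. Over the members, females 1 and 5 had mean deviations of 0.20 and 0.22 in hCYP2B6-Tg and of 0.19 and 0.21 in Cyp2b-null livers. Nrp1 in males passed with DESeq2 (adjusted p = 0.00877), with only the groups compared (0.0488) and without Cyp2b-null male 1 (0.0466), its range over all alternatives being 0.00877 to 0.283, and Tbx3 in males passed with DESeq2 (0.00685) and without the 3 libraries (0.00129), with a range of 0.00129 to 0.569. Depth limits Wnt2 and Rspo3 most, with 18 to 55 counts per library.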

Other observations

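Rows of the WNT list that the filter on low counts removed were near the limit of detection. Wnt9b, a WNT ligand of central vein endothelium, had 18 counts over the 4 hCYP2B6-Tg males and 11 over the 4 Cyp2b-null males, and 12 over the 4 hCYP2B6-Tg females and 20 over the 4 Cyp2b-null females. Rspo1 had 13 and 5 counts in the same male groups and 15 and 1 in the same female groups. The endothelial tight junction gene Cldn5, which marks arteries and larger vessels more than sinusoids, had 6 counts in hCYP2B6-Tg males, 9 in Cyp2b-null males, 14 in hCYP2B6-Tg females and 14 in Cyp2b-null females. These rows were not tested.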
